A study of Mus musculus with 29 samples.

Results

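The intercalated disc joins cardiac myocytes end to end, and 10 genes that encode its junction proteins were followed through heart failure and recovery in the mouse heart. They were taken by name from a table of 29955 genes: the gap junction genes Gja1 and Gja5, the desmosome genes Dsp, Pkp2, Dsg2, Dsc2 and Jup, the adherens junction genes Cdh2 and Ctnna3, and Tjp1, the gene of the scaffold zonula occludens 1. All 10 were listed in the table and all 10 had a mean over the libraries above the minimum for testing, 0.5 FPKM (fragments scaled by transcript length and library size). The rule names the genes and sets no threshold on their values.

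RNA sequencing values of 24 libraries were compared. The mice were C57BL6 per the labels, male C57BL/6J mice per the study's methods, and 3 months old at the start. In the HF and Recovery groups they drank water with 0.3 mg/ml of the nitric oxide synthase inhibitor L-NAME and 1% NaCl for 5 weeks, and after 1 week received an osmotic pump that delivered angiotensin II at 0.7 mg/kg/day for 28 days. HF hearts were taken at week 3 (n = 2) and week 5 (n = 3) of this induction. Recovery hearts were taken at weeks 7 (n = 2), 9 (n = 2), 11 (n = 3), 13 (n = 2) and 19 (n = 5), which is 2, 4, 6, 8 and 14 weeks after the agents were withdrawn. The comparison group was Control week 19 (n = 5), mice without the agents that were 14 weeks older than HF week 5. Age and treatment therefore cannot be told apart between these groups. Recovery week 19 was likewise 14 weeks older than HF week 5, so age and recovery cannot be told apart there. All other HF and Recovery groups were also younger than the control. The model rests on drugs and salt given to the whole animal, without a transgene, and the labels name whole heart or ventricle where the methods name the apical portion. The study ran in several cohorts, and the columns do not show which library came from which.

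In the working myocardium, connexin 43 from Gja1 forms the channels that pass current from cell to cell, while connexin 40 from Gja5 is known from atrial myocytes, the conduction system and arterial endothelium. Desmosomes anchor the intermediate filaments of neighbouring myocytes to each other through desmosomal cadherins, plakoglobin, plakophilin and desmoplakin, and adherens junctions anchor the actin of the sarcomeres through N-cadherin and catenins. Mutations in several desmosomal genes are known from arrhythmogenic cardiomyopathy.

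Some libraries stood apart from the rest before any junction gene was read. The labels name whole heart as the source and whole ventricle as the tissue. The atrial myosin light chain gene Myl7 stood at 18388 FPKM in HF week 5 library 1, 152 in library 2 and 6.16 in library 3, at 1805 and 5773 in HF week 3, and at 0.166 to 1.12 in Control week 19. The summed level of the 5 atrial markers was 89.6 to 349 FPKM in the controls, 2230 to 81735 in HF week 5, 7737 to 14050 in HF week 3 and 173 to 752 in Recovery week 19. Of these markers Bmp10 stayed out of the test on its low level, and the other 4 were all called higher in HF week 5, also without library 1, where the log2 fold change of Myl7 was 4.73 (limma, adjusted p = 0.00166). Nppa and Bmp10 were listed at 0 in both HF week 3 libraries. The 8 mesothelial markers summed to 2.22 to 3.57 FPKM in the controls and 13.3 to 102 in HF week 5, where 6 of the 7 tested were called higher. Library 1 of HF week 3 listed values above 0 for 12816 genes, where the other libraries did so for 16339 to 18091, and held 115 genes at 0 that had at least 2 FPKM in every other library. The cardiomyocyte gene Myh6 was listed at 0 in all libraries of HF week 5, Control week 19 and Recovery week 19 and at 37546 to 316195 FPKM in the others, so the tables of these weeks do not list genes alike. Without Myh6, the other 9 cardiomyocyte markers summed to 28213 to 34506 FPKM in Control week 19, 23218 to 34915 in HF week 5 and 23103 to 34219 in Recovery week 19. Relative depth, read from the steps between low values, was 0.562 to 1.41 times the geometric mean of the 23 libraries that show such steps. Values without HF week 5 library 1 or HF week 3 library 1 stand beside the results on these groups. A fit without 1 of the 2 HF week 3 libraries leaves a lone library, which is assumed to vary like the other groups.

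**Figure D1:**
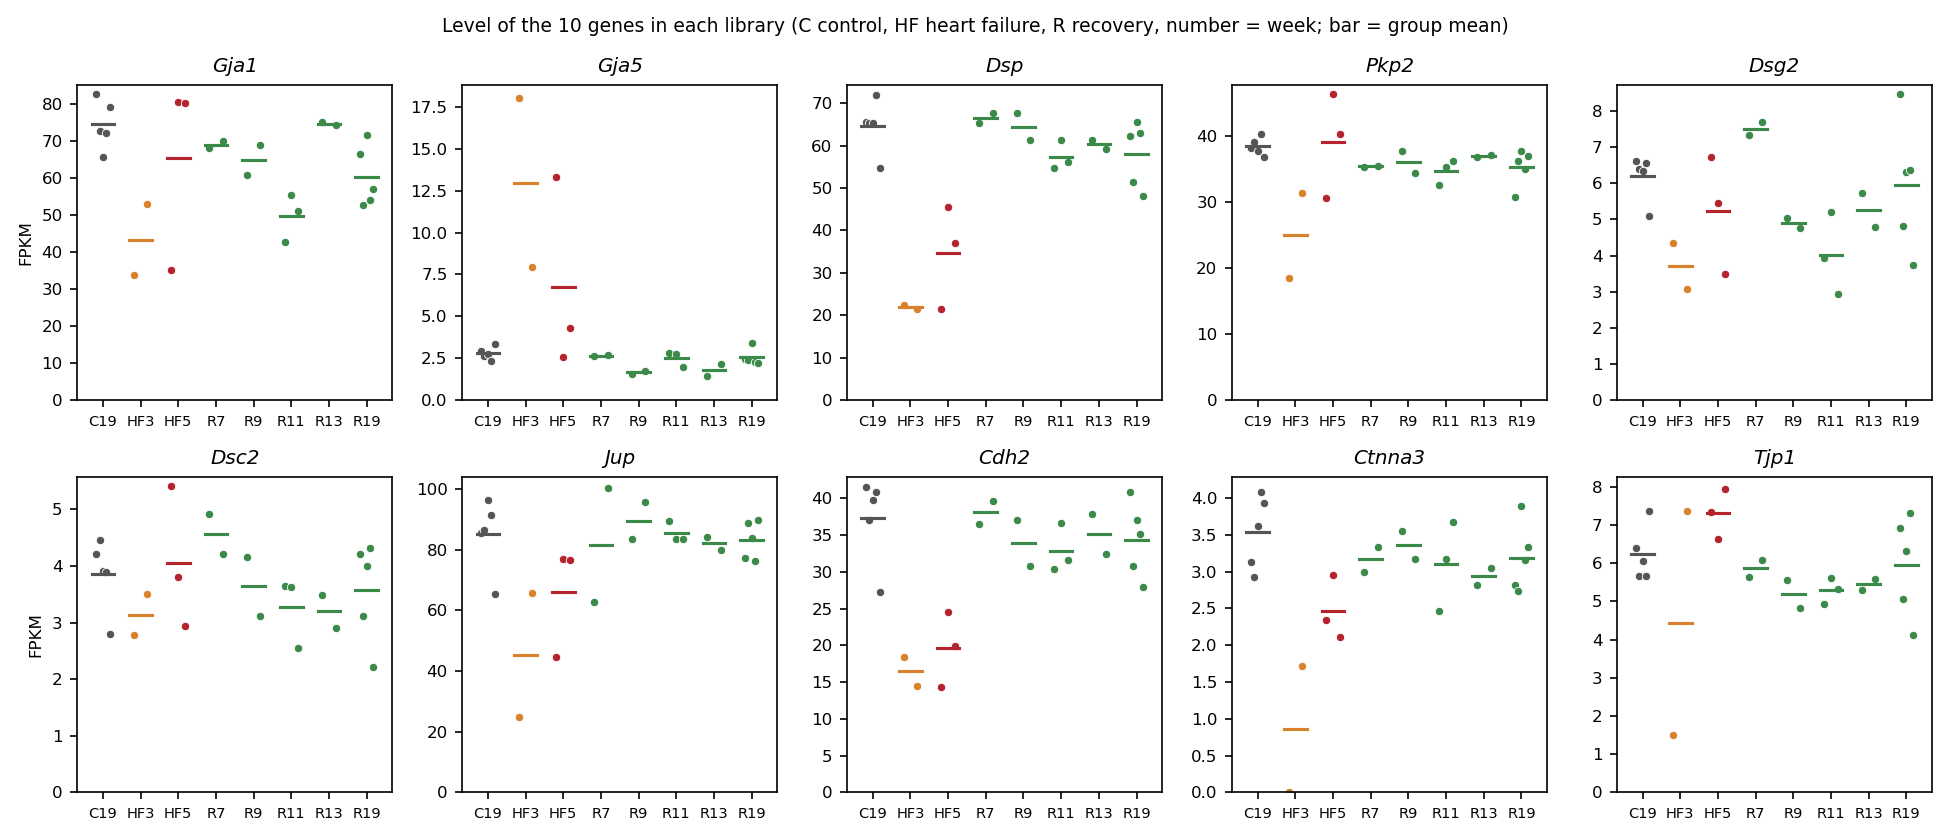
Level of each of the 10 genes in FPKM (linear axes from 0) in every library of the 8 groups, with points for libraries and bars for group means; C is Control, HF heart failure, R Recovery and the number the week. Dsp and Cdh2 lie below all control libraries in every HF library, and at Recovery weeks 7 to 19 lie among or near the control points.

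Of the 10 genes, Dsp and Cdh2 fell in HF week 5 relative to Control week 19 and were higher again in Recovery week 19. These 2 calls stand against 24.0% of all 12759 genes tested that were called in either direction in HF week 5, and 12.4% that were called lower, at an adjusted p under 0.05 in limma. The groups did not overlap in 2 of the 10 genes, where 29.5% of all genes tested did not overlap. The median log2 fold change of the 10 genes was -0.27, against 0.04 over all genes tested, and -0.15 without HF week 5 library 1.

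Dsp encodes desmoplakin, which ties the desmosomal plaque to desmin filaments. Its level was 65.6, 65.2, 65.4, 71.9 and 54.8 FPKM in the control libraries, 21.5, 45.6 and 37.0 in HF week 5, and 22.4 and 21.5 in HF week 3. Every HF library was below every control library. In HF week 5 Dsp fell 1.93-fold on the log2(FPKM + 0.5) scale, by 0.95 ± 0.17 (log2 fold change ± SE), with an adjusted p of 0.000665 in limma. The level was lowest in library 1, where the atrial markers were highest, and the fall was smaller without that library, at a log2 fold change of -0.64 (limma, adjusted p = 0.00417), where 10.7% of all genes were called. Both remaining HF week 5 libraries also lay below all 5 controls. In bulk tissue, fewer cells of a type and less RNA per cell cannot be told apart. Beside the falls of Dsp and Cdh2, 6 of 9 fibroblast markers and 3 of 6 smooth muscle markers were called higher in HF week 5, and 1 of 10 cardiomyocyte markers lower. Without library 1, where Dsp and Cdh2 kept their calls, 1 fibroblast and 1 smooth muscle marker were called higher and no cardiomyocyte marker lower. In that fit 6 of 7 mesothelial, 4 of 4 atrial and 5 of 10 endothelial markers tested were still called higher. The median log2 fold change of the fibroblast markers was then 0.47, from 0.65, and that of the smooth muscle markers 0.81, from 0.78. Their summed levels were 255 to 363 FPKM and 78.6 to 106.0 in the controls and 361 to 711 and 146 to 239.6 in HF week 5, and the part of these cells in the falls was not tested. In HF week 3 the log2 fold change was -1.53 (limma, adjusted p = 4.62e-06).

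In recovery, the Dsp level in FPKM was 65.3 and 67.6 (week 7), 67.6 and 61.3 (week 9), 54.7, 61.4 and 56.03 (week 11), 61.3 and 59.3 (week 13), and 62.2, 51.4, 65.5, 63.1 and 48.04 (week 19). The 2 libraries of week 7, 2 weeks after withdrawal, were already within the control range. Recovery week 19 was above HF week 5 in all 5 libraries, by 0.79 ± 0.17 on the log2 scale (limma, adjusted p = 0.00244), and by 0.48 without HF week 5 library 1 (limma, adjusted p = 0.0205). Against Control week 19 the log2 difference was -0.16 (95% interval -0.46 to 0.14).

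Cdh2 encodes N-cadherin, the adhesion molecule of the adherens junction that the other disc junctions are built around. Its level was 41.6, 37.1, 39.8, 40.9 and 27.2 FPKM in the controls, 14.3, 24.6 and 19.95 in HF week 5, and 18.4 and 14.5 in HF week 3. All 5 HF libraries were below the lowest control, library 5. The fall in HF week 5 was 1.90-fold, 0.93 ± 0.17 on the log2 scale (limma, adjusted p = 0.000813), and the log2 fold change was -0.72 without library 1 (limma, adjusted p = 0.0111). In HF week 3 it was -1.15 (limma, adjusted p = 9.1e-05). In recovery, the Cdh2 level in FPKM was 36.5 and 39.7 (week 7), 37.1 and 30.9 (week 9), 30.4, 36.7 and 31.6 (week 11), 37.9 and 32.5 (week 13), and 40.8, 30.8, 37.1, 35.2 and 27.99 (week 19). None of them was as low as any HF library. From HF week 5 to Recovery week 19 Cdh2 rose by 0.82 ± 0.17 on the log2 scale (limma, adjusted p = 0.00201), and by 0.61 without HF week 5 library 1 (limma, adjusted p = 0.0249). The Recovery week 19 difference from control was -0.11 (95% interval -0.42 to 0.19).

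Dsp and Cdh2 followed each other over the libraries, with a Pearson r of 0.962 over all 24 and 0.853 over the 19 libraries outside HF. Outside HF, Dsc2 and Dsg2 also followed them, with r of 0.799 and 0.707 for Dsp and 0.779 and 0.760 for Cdh2. Over all 24 these values were lower, from 0.138 to 0.522. They describe values that share a library and its scaling. The window before the Dsp start, which is printed because Dsp had the smallest adjusted p of the 10 genes in HF week 5, is rich in G and C. It comes from the RefSeq sequences of GRCm38.p6, another build than the MGSCv37 of the deposited values, and spans the 250 bases before the annotated start, chr13:38151044-38151293 on the plus strand. Its GC content is 72.4%, against a median of 52.4% over all 32851 windows of the same length, and capitals mark the letters GGGCGG on either strand, the core of the GC box.
Dsp: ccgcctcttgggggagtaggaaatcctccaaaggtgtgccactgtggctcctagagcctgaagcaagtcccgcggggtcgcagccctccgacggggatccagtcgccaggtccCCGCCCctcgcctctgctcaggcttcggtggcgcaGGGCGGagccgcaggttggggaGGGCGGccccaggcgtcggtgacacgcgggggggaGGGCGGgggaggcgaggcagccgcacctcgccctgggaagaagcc
The Dsp window holds 4 such matches, which end 132, 97, 75 and 40 bases before the start, and 32.7% of all windows hold at least 1. A match describes letters, not a bound site. Windows of 6 of the 10 genes were matched by symbol, and none was found under the symbols Cdh2, Dsg2, Dsc2 and Pkp2.

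The other desmosomal genes gave no call in HF week 5. Pkp2 encodes plakophilin 2, the plaque protein between plakoglobin and desmoplakin. It stood at 38.1, 39.0, 37.6, 40.3 and 36.8 FPKM in the controls and 30.6, 46.3 and 40.2 in HF week 5, with library 1 below the control range, library 2 above it and library 3 within it. Its log2 fold change was 0.01 (95% interval -0.28 to 0.29), an interval that does not reach the -0.95 of Dsp. Jup encodes plakoglobin, which is shared by desmosomes and adherens junctions. It stood at 85.5, 86.3, 96.2, 91.4 and 65.4 FPKM in the controls and 44.7, 76.8 and 76.6 in HF week 5, and only library 1 lay below all controls. Its log2 fold change of -0.39 (95% interval -0.88 to 0.09) did not pass (limma, adjusted p = 0.233), and was -0.13 without library 1. For Pkp2 it was then 0.17, and neither gene passed.

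Dsg2 and Dsc2 encode the desmosomal cadherins desmoglein 2 and desmocollin 2, whose outer parts bind across the cell gap. Dsg2 was at 6.60, 6.40, 6.35, 6.56 and 5.10 FPKM in the controls and at 6.74, 5.45 and 3.50 in HF week 5. Dsc2 was at 4.22, 4.46, 3.90, 3.89 and 2.81 FPKM in the controls and at 5.42, 3.81 and 2.94 in HF week 5. Both genes were highest in library 1 and lowest in library 3 of HF week 5, the reverse of Dsp and Cdh2 for library 1, and the groups overlapped. Neither log2 fold change passed, with -0.26 for Dsg2 (95% interval -0.71 to 0.19) and 0.04 for Dsc2 (95% interval -0.38 to 0.46). Without library 1 they were -0.45 and -0.16, a change of sign for Dsc2, and neither passed. The 2 genes followed each other over the libraries, with a Pearson r of 0.752 over 24 and 0.806 over the 19 outside HF.

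Taken as a ratio within each library, Dsc2 to Dsg2 was 0.639, 0.698, 0.615, 0.593 and 0.551 in the controls, 0.804, 0.700 and 0.841 in HF week 5, and 0.497, 0.647, 0.632, 0.679 and 0.590 in Recovery week 19. The HF week 5 ratios were above all ratios of both other groups, although library 2 exceeded control library 2 by little. At the other time points the ratio was 0.641 and 1.13 in HF week 3, 0.672 and 0.546 in Recovery week 7, 0.826 and 0.654 in week 9, 0.931, 0.696 and 0.866 in week 11, and 0.610 and 0.607 in week 13. Weeks 7 and 13 thus lay within the control range but for 1 library just below it, and libraries of weeks 9 and 11 were as high as HF week 5. The log2 ratio, of FPKM + 0.5, differed by 0.31 from control in a two-sided exact permutation test with p = 0.0179, the smallest that 3 against 5 libraries allow, and by -0.33 between Recovery week 19 and HF week 5 with the same exact p. Without library 1 these differences were 0.29 and -0.31. Neither passed after adjustment over the 9 ratio tests (adjusted p = 0.0804).

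Ctnna3 encodes αT-catenin, a catenin of the heart that links cadherin to actin at mixed junctions of the disc. It stood at 3.13, 2.92, 3.62, 4.08 and 3.93 FPKM in the controls and 2.34, 2.95 and 2.11 in HF week 5. Library 2 lay within the control range and the others below it. Its log2 fold change of -0.45 (95% interval -1.04 to 0.15) did not pass (limma, adjusted p = 0.273). It passed with quantile normalization, at -0.56 (limma, adjusted p = 0.0302), and in 2 fits that left out other groups. Without library 1 it was -0.42 and did not pass. Its ratio to Ctnna1, the gene of the widely expressed αE-catenin, differed by -0.22 on the log2 scale between HF week 5 and control (exact permutation p = 0.161, adjusted p = 0.241), and by -0.13 without library 1.

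Tjp1 encodes zonula occludens 1, which binds connexin 43 at the rim of gap junction plaques. It stood at 6.40, 5.67, 6.06, 5.68 and 7.36 FPKM in the controls and at 7.34, 6.64 and 7.94 in HF week 5, where the levels lay in the upper part of the control range or above it. The log2 fold change was 0.22 (95% interval -0.35 to 0.78), and 0.21 without library 1, and it did not pass in either fit.

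**Figure D2:**
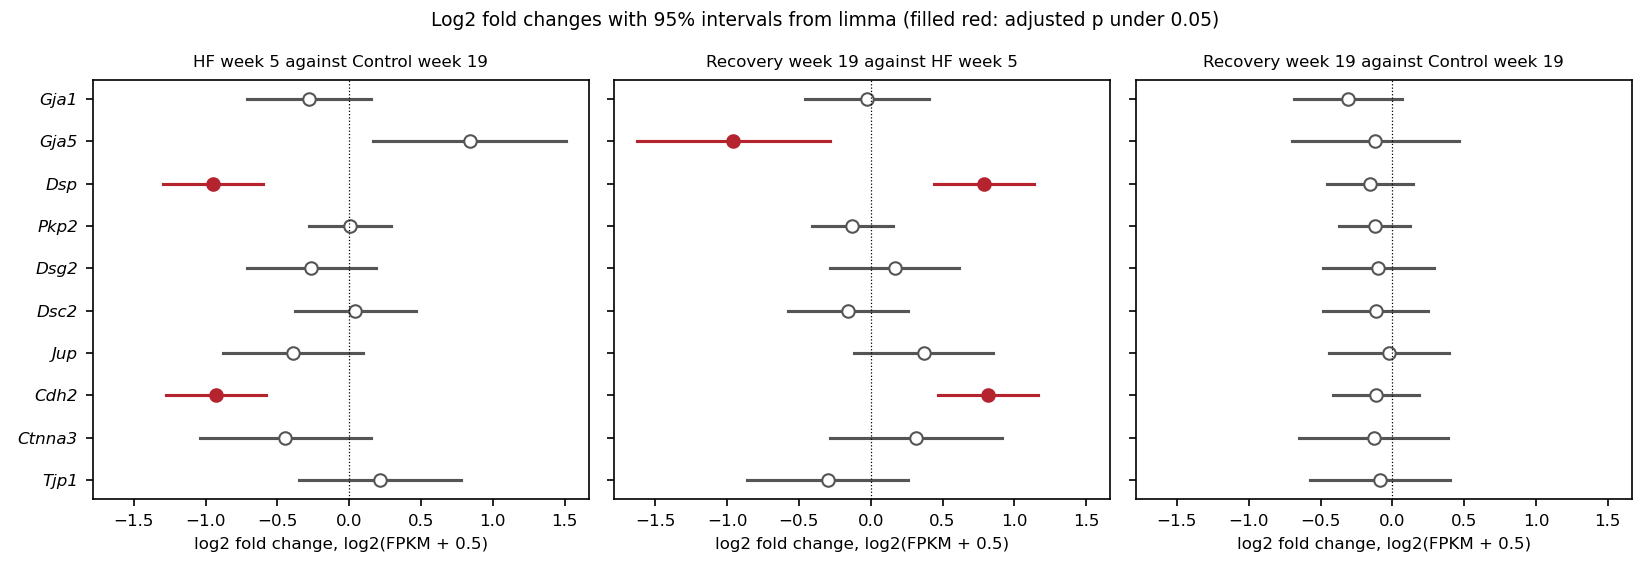
Log2 fold changes of the 10 genes on the log2(FPKM + 0.5) scale with 95% intervals from limma, in 3 comparisons; filled red points have an adjusted p under 0.05. Dsp and Cdh2 lie at -0.95 and -0.93 in HF week 5 and at 0.79 and 0.82 in Recovery week 19 against HF week 5, and no gene passes in Recovery week 19 against Control week 19.

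The 2 gap junction genes went apart in the 3 libraries where Myl7 was highest. Gja1 stood at 82.8, 72.8, 65.6, 72.1 and 79.2 FPKM in the controls, at 35.1, 80.5 and 80.3 in HF week 5, and at 33.9 and 52.9 in HF week 3. In HF week 5 only library 1 was below the controls, and the other libraries lay within their range. The log2 fold change of Gja1 was -0.28 (95% interval -0.71 to 0.15, limma, adjusted p = 0.347), and 0.11 without library 1 (limma, adjusted p = 0.695), so 1 library set its sign.

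Gja5 stood at 2.93, 2.65, 2.74, 2.35 and 3.37 FPKM in the controls, at 13.3, 2.59 and 4.28 in HF week 5, and at 18.01 and 7.94 in HF week 3. Library 2 of HF week 5 lay within the control range, library 3 just above it and library 1 far above it. The log2 fold change in HF week 5 was 0.84 ± 0.32 and did not pass (limma, adjusted p = 0.0639). It was 0.22 without library 1 (limma, adjusted p = 0.604) and 1.31 without library 2 (limma, adjusted p = 0.00553). In HF week 3 it was 1.93 ± 0.37 (limma, adjusted p = 0.000327), and 1.36 without library 1 of that group (limma, adjusted p = 0.0284).

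In Recovery week 19 Gja5 was at 2.45, 2.40, 3.41, 2.30 and 2.25 FPKM, lower than in HF week 5 by a log2 difference of -0.96 ± 0.32 (limma, adjusted p = 0.0356). This call was lost without HF week 5 library 1, at a difference of -0.34 (limma, adjusted p = 0.385). It was also lost, at about the same difference, without Recovery week 19 library 1, 2, 4 or 5, where the adjusted p in limma was 0.0550, 0.0630, 0.0644 and 0.0565. The 3 libraries with the highest Gja5 were the 3 with the highest Myl7. Among these 3, HF week 3 library 1 had the highest Gja5 and the lowest Myl7. In HF week 5, library 2 had more Myl7 than library 3 and less Gja5. The part of atrial tissue in the result was not tested. The fits without HF week 5 library 1 do not isolate it. That library also held the highest endothelial and fibroblast marker sums of its group, at 838.6 and 711.4 FPKM. Of the 5 arterial endothelial markers, which include the connexin gene Gja4, 2 were called higher in HF week 5 and 3 without library 1, and their summed level was 41.3 to 50.5 FPKM in the controls and 53.6 to 66.8 in HF week 5. The 5 conduction system markers summed to 3.52 to 5.11 FPKM in the controls and 2.93 to 6.69 in HF week 5. Only Tbx3 was tested, and in HF week 5 against control it was not called, at -0.48 (limma, adjusted p = 0.137). In Recovery week 19 against HF week 5 it was called higher, at 0.72 (limma, adjusted p = 0.0287). Without library 1 that difference was 0.67 and did not pass (limma, adjusted p = 0.114). In HF week 3 against control Tbx3 was called lower, at -0.76. Below the minimum for testing, Cntn2 was at 3.23, 0.573 and 0.562 FPKM in HF week 5, above the controls at 0.00578 to 0.426, Hcn4 at 0.126, 0.162 and 0.0719 was below the controls at 0.197 to 1.02, and Isl1 was listed at 0.

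**Figure D3:**
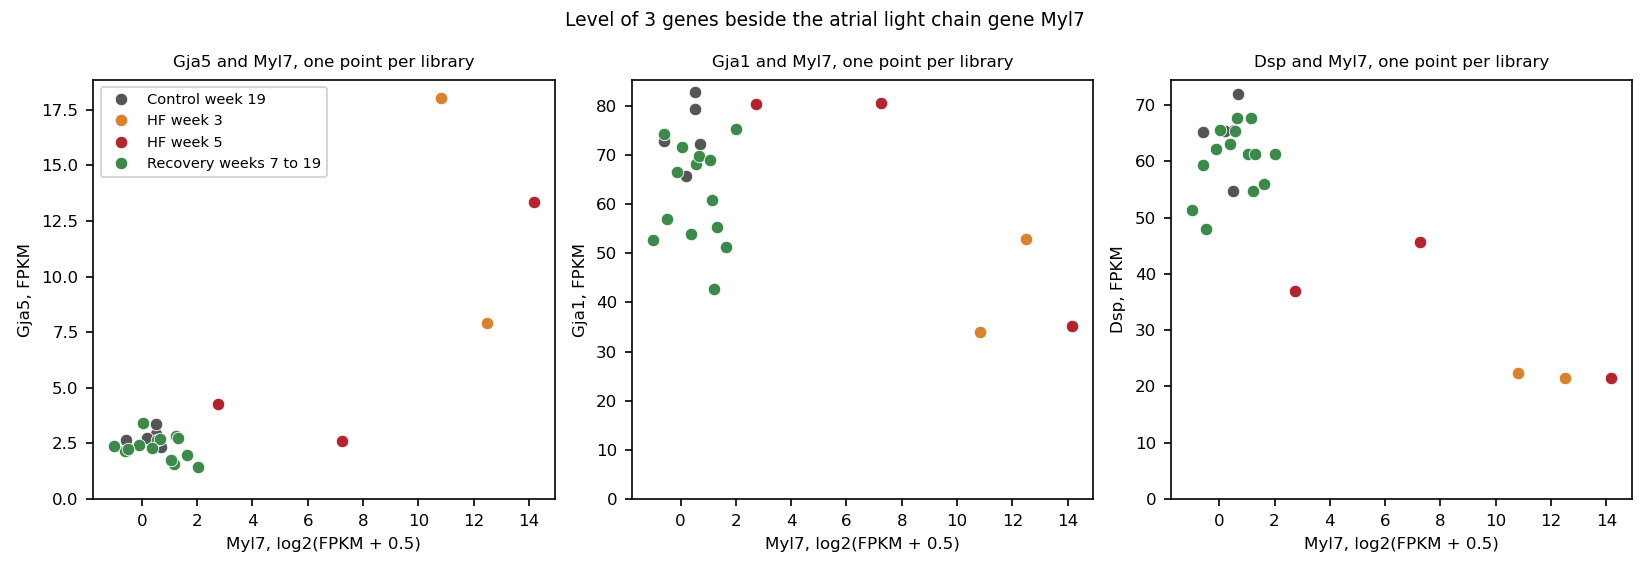
Level in FPKM of Gja5, Gja1 and Dsp (linear axes from 0) against the level of the atrial gene Myl7 as log2(FPKM + 0.5), 1 point for each of the 24 libraries. The 3 libraries with the highest Myl7 hold the highest Gja5 and the lowest Dsp, and the other HF week 5 libraries lie with the controls in Gja1 but below them in Dsp.

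Per library, Gja5 divided by Gja1 was 0.0326 to 0.0426 in the controls. It was 0.380, 0.0322 and 0.0533 in HF week 5, 0.532 and 0.150 in HF week 3, and 0.0369 to 0.0477 in Recovery week 19. The mean log2 ratio, of FPKM + 0.5, differed by 1.12 between HF week 5 and control (exact permutation p = 0.125), and by 0.11 without library 1.

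The windows before these starts are printed because the 2 connexin genes took opposite directions in the same libraries. Both come from RefSeq, GRCm38.p6, plus strand: chr10:56377050-56377299 for Gja1 and chr3:97032152-97032401 for Gja5. Capitals mark TGANTCA, the AP-1 letters, and GGGCGG, each searched on both strands.
Gja1: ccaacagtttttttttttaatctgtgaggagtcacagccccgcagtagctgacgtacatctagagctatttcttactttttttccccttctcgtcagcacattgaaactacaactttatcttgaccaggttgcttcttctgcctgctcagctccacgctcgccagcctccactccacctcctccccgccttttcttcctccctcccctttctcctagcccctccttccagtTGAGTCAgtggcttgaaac
Gja5: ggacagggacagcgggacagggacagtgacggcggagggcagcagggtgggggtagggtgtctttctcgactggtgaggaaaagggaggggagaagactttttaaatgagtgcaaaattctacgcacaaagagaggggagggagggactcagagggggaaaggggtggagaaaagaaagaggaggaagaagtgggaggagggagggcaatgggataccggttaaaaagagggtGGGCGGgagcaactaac
Gja1 holds 1 match to TGANTCA, ending 13 bases before the start, as do 6.75% of all windows, and none to GGGCGG. Gja5 holds 1 match to GGGCGG, ending 12 bases before the start, and none to TGANTCA. Other letters were searched in the same way. AGATAA, known from GATA factors, was found in Gja1 and is in 9.99% of all windows. The letters AAGTG, known from NK-2 factors, were found in Gja5 and are in 40.7% of windows. Neither gene held CATTCC, known from TEAD factors and in 12.6% of windows. The T-box letters AGGTGTGA, in 1.12% of windows, were in neither gene.

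The genes whose levels were most like that of Gja1 over the 24 libraries, by Pearson r of log2(FPKM + 0.5), were Lmod3 (0.855), Timm44 (0.820), Fyttd1 (0.811), Ric8b (0.810) and Snai3 (0.795). For Gja5 they were Amigo2 (0.946), Csf2rb2 (0.936), Arrb1 (0.929), Cilp2 (0.916) and Eps8 (0.915). For Gja5 the 3 highest libraries are HF libraries, as described above.

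The earlier stage of induction, HF week 3, gave 9 calls of 10 against Control week 19, 8 of them lower, where 50.7% of all genes were called and 27.6% called lower. In the same libraries 4 of the 9 cardiomyocyte markers other than Myh6, which was listed at 0 in the controls, were called lower, among them Pln at a log2 fold change of -1.90 and Ryr2 at -1.27, and none was called higher. Called higher were 6 of 9 fibroblast, 7 of 10 endothelial and 6 of 7 mesothelial markers tested. Of the endothelial markers 1 was called lower, Kdr at a log2 fold change of -0.82 (limma, adjusted p = 0.0292). The part of these cells in the result was not tested. The exception to the 9 calls was Dsc2, at 2.78 and 3.50 FPKM. This count rests on library 1, in which Tjp1 stood at 1.51 FPKM against 7.38 in library 2, Jup at 24.9 against 65.5, Pkp2 at 18.5 against 31.3, and Ctnna3 was listed at 0 against 1.71. Without library 1, 5 genes were called, where 30.1% of all genes were: Dsp at a log2 fold change of -1.56, Cdh2 at -1.32, Dsg2 at -0.90 and Ctnna3 at -0.86 were lower and Gja5 at 1.36 was higher. Gja1, Pkp2, Jup and Tjp1 lost their calls, and Tjp1 changed sign, to 0.23. Dsg2 stood at 4.34 and 3.09 FPKM, below all controls in both libraries, and lost its call without library 2 (limma, adjusted p = 0.210). Tjp1 also lost its call without any single control library, with limma adjusted p-values of 0.0561 to 0.0792.

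During recovery no call was made on any of the 10 genes at week 7, 9, 11, 13 or 19 against Control week 19. The share of all genes called was as low, at 0.0470%, 0.0549%, 0.149%, 0.0784% and 0.0235% in that order. At an unadjusted p under 0.05, Gja1 and Dsg2 passed at week 11, where 8.45% of all genes did, and no other of the 10 genes passed at any week, where the share was 3.61% at week 7, 3.60% at week 9, 10.4% at week 13 and 2.88% at week 19. At week 11 Gja1 stood at 42.7, 55.4 and 51.2 FPKM, all below the controls, with a log2 fold change of -0.58 (limma, adjusted p = 0.364). Dsg2 stood at 3.93, 5.21 and 2.94 FPKM in the same libraries, with a log2 fold change of -0.59 (limma, adjusted p = 0.380) and 1 library within the control range. At week 11, 8 of 9 fibroblast and 5 of 5 immune markers tested were above 0, at median log2 fold changes of 0.65 and 0.80. Of them 1 fibroblast marker was called, and the part of these cells in the result was not tested.

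In Recovery week 19 the levels of Gja1 were 66.5, 52.8, 71.6, 54.0 and 57.0 FPKM, with 3 of 5 libraries below all controls. The log2 difference was -0.31 (95% interval -0.68 to 0.07), the largest of the 10 genes. All 10 log2 differences from Control week 19 were below 0, with a median of -0.12 against -0.01 over all genes tested, and every 95% interval held 0. In this comparison the cardiomyocyte markers had a median of -0.10. Above 0 were 7 of 9 fibroblast and 4 of 5 immune markers tested, at medians of 0.29 and 0.59. No marker of these lists was called, and the part of these cells in the differences was not tested. From HF week 5 to Recovery week 19, 3 of the 10 genes were called, Dsp and Cdh2 higher and Gja5 lower, where 24.2% of all genes were called and 12.3% were called higher. The groups did not overlap in 2 of the 10, against 26.7% of all genes. The HF week 5 libraries enter this comparison and the one with control, which are therefore not independent.

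Other junction genes were read from 5 lists by role. Of 48 tested, 14 were called in HF week 5 against control (8 higher and 6 lower) and 12 in Recovery week 19 against HF week 5, where 24.0% and 24.2% of all genes were. Of all genes 11.6% were called higher and 12.4% lower in HF week 5, the shares beside which the counts of each list and of each marker list stand. None was called in Recovery week 19 against control in limma, and 2 were at an unadjusted p under 0.05.

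Of 9 gap junction and pannexin genes 7 were tested, 2 higher and 1 lower in HF week 5. Gja3, which encodes connexin 46, stood at 4.36, 5.54, 5.11, 4.22 and 1.84 FPKM in the controls and at 0.953, 1.37 and 0.709 in HF week 5, below all of them. It fell by 1.59 ± 0.33 on the log2 scale (limma, adjusted p = 0.00228), and by 1.58 without library 1 (limma, adjusted p = 0.0153). It rose by 1.68 in Recovery week 19 (limma, adjusted p = 0.00153). All 4 atrial markers tested were called higher without library 1 too, and the part of atrial tissue in the fall was not tested. Gja4, which encodes the endothelial connexin 37, rose in HF week 5 by 0.67 ± 0.19 on the log2 scale (limma, adjusted p = 0.0175), and by 0.90 without library 1. Beside it, 6 of 10 endothelial markers were called higher, 5 without library 1, and their summed level was 351 to 444 FPKM in the controls and 496 to 839 in HF week 5. The part of these cells in the result was not tested.

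Panx1, which encodes the membrane channel pannexin 1, rose by 0.77 (limma, adjusted p = 0.0210), with a log2 fold change of 0.50 that did not pass without library 1 (limma, adjusted p = 0.195). Gjc1, the gene of connexin 45, had a log2 fold change of 0.31, and of 0.55 without library 1 (limma, adjusted p = 0.0490). Gjd3 was at 3.73 FPKM in HF week 5 library 1 and at 0.242 and 0.172 in the others, with 0 to 0.572 in the controls, and did not pass. Panx2 at -0.08 did not pass either, and its mean FPKM was higher in HF week 5 while the mean log2 value was lower.

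**Figure D4:**
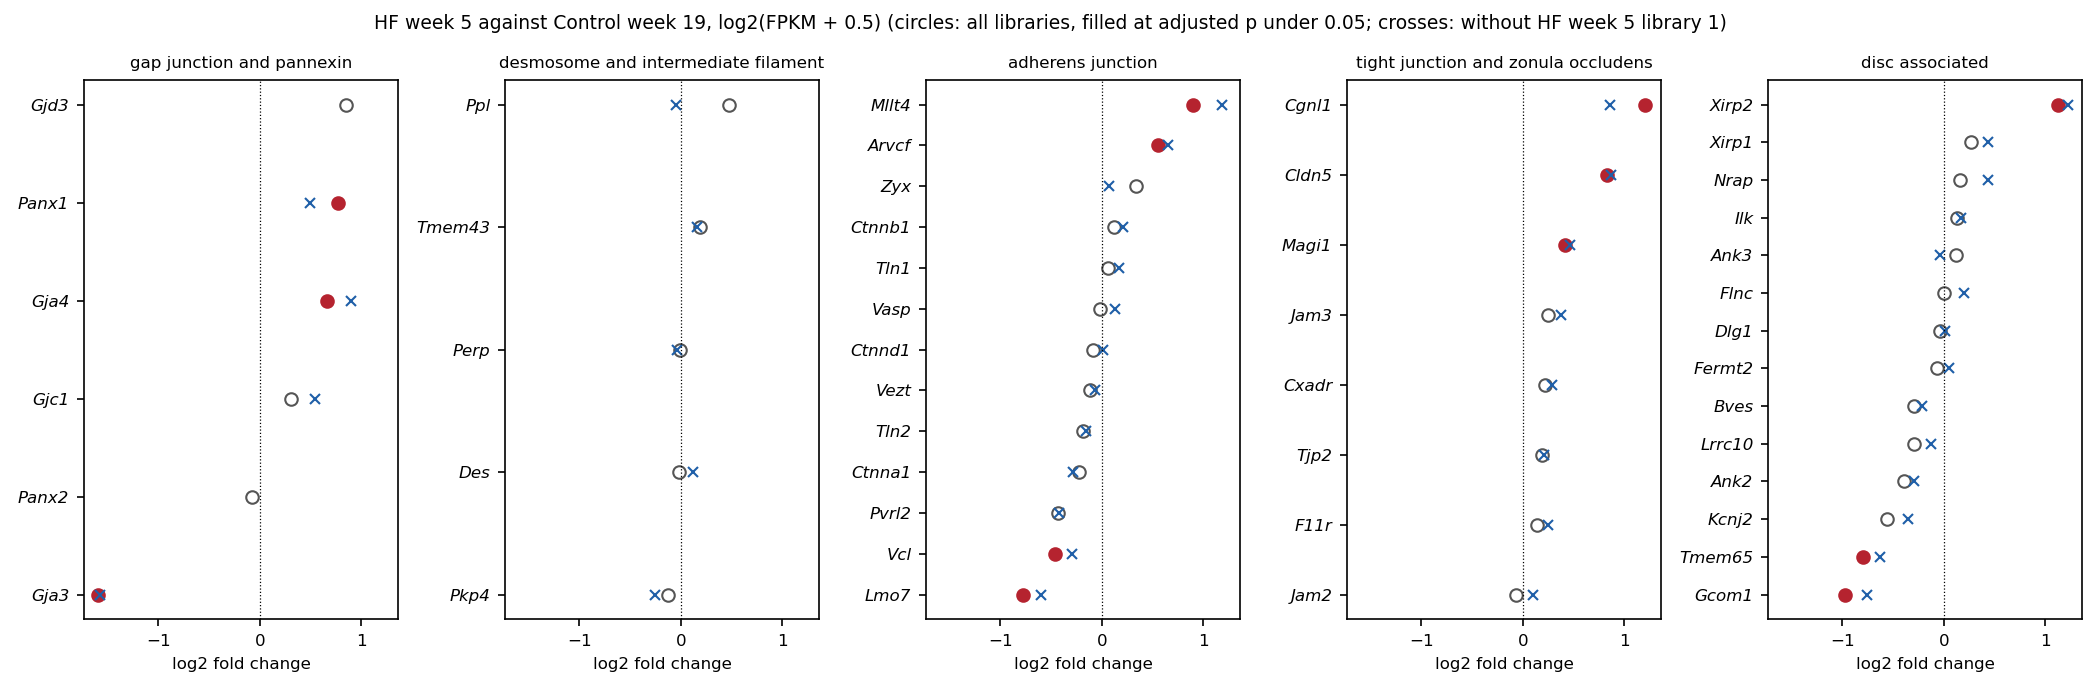
Log2 fold changes of 46 of the other junction and disc genes in HF week 5 against Control week 19 on the log2(FPKM + 0.5) scale, by list; circles use all libraries and are filled at an adjusted p under 0.05, crosses leave out HF week 5 library 1 and are missing where a gene fell under the filter without it. Gja3 lies at -1.59 and -1.58, and Panx1 is nearer 0 without that library.

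Of 13 adherens junction genes, Mllt4, the gene of afadin, rose by 0.90 and Arvcf, a catenin of the p120 family, by 0.56, while Lmo7 at -0.78 and Vcl, the gene of vinculin, at -0.47 fell on the log2 scale (limma, adjusted p = 0.00473, 0.00274, 0.00504 and 0.0372). Without library 1, Mllt4 and Arvcf kept their calls, at 1.18 and 0.66, while Lmo7 at -0.60 and Vcl at -0.30 did not pass (limma, adjusted p = 0.0566 and 0.268). Of 10 genes listed for desmosomes and intermediate filaments 5 were tested, none was called, and 1 was at an unadjusted p under 0.05.

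Of 11 tight junction genes 8 were tested and 3 rose, none fell. Cgnl1, the gene of paracingulin, was at 5.72 to 7.48 FPKM in the controls and 25.8, 11.2 and 13.8 in HF week 5, a log2 rise of 1.21 (limma, adjusted p = 0.00026), or 0.86 without library 1. Cldn5, the claudin of endothelium, rose by 0.83 and Magi1 by 0.41. Without library 1 their log2 fold changes were as large, at 0.87 and 0.46, but did not pass (limma, adjusted p = 0.0769 and 0.0729).

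Of 15 disc associated genes 1 rose and 3 fell, and Xirp2, Gcom1 and Tmem65 are described here. Xirp2, which encodes an actin-binding protein of the disc, was at 57.7 to 86.4 FPKM in the controls and 129, 175 and 145 in HF week 5, a log2 rise of 1.12 (limma, adjusted p = 0.000424). Gcom1, an older symbol for Myzap, whose product binds desmoplakin and zonula occludens 1 at the disc, fell by 0.97 (limma, adjusted p = 0.000165), and Tmem65, which binds connexin 43, fell by 0.80 (limma, adjusted p = 8.36e-05). Without library 1, these were the 3 genes of the list that were called, at 1.22, -0.76 and -0.63.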

How the data were processed

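Paired-end RNA-seq of mouse hearts was used. Reads were aligned by the authors with TopHat to the mouse genome MGSCv37 (mm9), and the deposited FPKM values were computed with Cuffdiff, 1 column for each library. The study's methods give default parameters for the alignment and do not name the strand setting. The annotation and the scaling between libraries are not given in the sources used here. Nothing was repeated on the reads. Libraries were numbered within a group in column order and not tied to labelled animals, so p-values measure the spread between these libraries. Of the columns of single samples 5 were not used, since 5 columns are named as week 5 controls and only 4 labelled samples exist for that group. Recovery week 9 has 2 columns and 3 labelled samples.

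Values were taken as log2(FPKM + 0.5), and the 12759 genes averaging 0.5 FPKM or more entered limma 3.58.1 (R 4.3.3), which estimated 8 group means with 16 residual degrees of freedom and a variance trend. Tests were two-sided, Benjamini-Hochberg adjusted over all genes tested, and called at an adjusted p under 0.05. The methods of the study use a p of 0.05 without naming an adjustment, so the unadjusted threshold is an alternative. Ratios within a library were compared by exact permutation and adjusted over 9 tests. The fits were tested on simulated data. The absolute depth is unknown, and the precision given is the spread between libraries.

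The members and gene lists were chosen with earlier results of these data known. Named genes are the 10 members, every tested gap junction gene, for each of the other lists up to 3 called genes with the largest change in HF week 5, markers beside a gene they move with, and for Gja1 and Gja5 the 5 genes of highest correlation. Vcl and Tmem65 were named after their values were seen where the rule leaves out all but 3. Alternatives were pseudocounts of 0.1 and 1, no filter or a mean of at least 1, the unadjusted threshold, fits of the compared groups alone, quantile normalization, median centring, and each library left out in turn. The results of 2 genes that this rule names are not reported here. A fit without the HF week 3 libraries was added after seeing the data. Figures were drawn with matplotlib 3.10.9 and tables handled with pandas 2.3.3 under Python 3.11.15.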

Additional observations from a re-analysis of the deposited data

Results flagged for a closer look

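In groups of 5 libraries, 20 sets of values of the 10 genes were checked for a library far from the others, and chance marks about 1 in 20 such sets. In Recovery week 19, Gja5 was at 3.41 FPKM in library 3, apart from the other 4 libraries at 2.25 to 2.45. In Control week 19, Dsg2 was at 5.10 FPKM in library 5, apart from the other 4 at 6.35 to 6.60.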

How the results depend on the processing

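In HF week 5 and in Recovery week 19 against HF week 5, Dsp and Cdh2 kept direction and call in all 17 alternatives of each comparison, with log2 fold changes of -1.17 to -0.64 (Dsp) and -1.10 to -0.72 (Cdh2) in HF week 5 and limma adjusted p-values up to 0.018 and 0.0143, and up to 0.0428 and 0.0249 in Recovery week 19 against HF week 5. For Gja5 the log2 fold change in HF week 5 ranged from 0.22 to 1.31 and passed in 3 of 17. Its call in Recovery week 19 against HF week 5 held in 10 of 17. Leaving out single libraries, HF week 5 gave 9 to 15 calls among the other disc genes, the lowest without HF week 5 library 1, Recovery week 19 against HF week 5 gave 7 to 12, the lowest without HF week 5 library 3, and HF week 3 gave 5 to 8 calls among the 10 genes, the lowest without HF week 3 library 1. The share of all genes called also moved with the HF week 5 library left out. In HF week 5 it was 24.0% with all libraries and 10.7%, 24.0% and 19.9% without library 1, 2 and 3. The lowest count of that comparison thus goes with the lowest of these shares. In Recovery week 19 against HF week 5 the share was 24.2% with all libraries and 12.2%, 23.0% and 20.1% without them in turn. The HF week 3 fits with a lone library are not compared in this way. Without both HF week 3 libraries, added after seeing the data, 4 of the 10 genes were called in HF week 5, Gja5 and Ctnna3 besides Dsp and Cdh2. The share of all genes called in that fit was not recorded, so this count cannot be set beside it. At the unadjusted threshold 2 other disc genes passed in Recovery week 19 against control. Median centring moved the median of all genes in HF week 5 from 0.04 to -0.02. No ratio test passed after adjustment, which says little, since the smallest exact p of 3 against 5 libraries, 0.0179, passes over 9 tests only if several tests reach it together. No paired analysis was possible because the columns carry no replicate letters. Groups of 2 or 3 libraries rest on a spread shared with the other groups, and the depth behind low levels is unknown.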

Other observations

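Within Control week 19, library 5 was the lowest of the 5 libraries for 6 of the 10 genes (Dsp, Pkp2, Dsg2, Dsc2, Jup and Cdh2) and the highest for Gja5 and Tjp1. It was also lowest for Gja3, at 1.84 FPKM against 4.22 to 5.54 in the other 4. Within Recovery week 19, library 5 was lowest for 6 of the 10 genes (Gja5, Dsp, Dsg2, Dsc2, Cdh2 and Tjp1), with Gja3 at 2.05 FPKM. The relative depth of these libraries was 0.845 and 0.562, and the deeper of them was within the range of the other controls. The columns do not show which labelled animal either library came from.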
